A study of Mus musculus with 4 samples.

Results

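The interleukin-1 (IL-1) and interleukin-36 (IL-36) family in mouse lung is described here by 10 genes: the cytokine genes Il1a, Il1b, Il18, Il36a and Il36g, the antagonist gene Il1rn, the signalling receptor genes Il1r1, Il1rl2 and Il18r1, and the decoy receptor gene Il1r2. They were taken by symbol from 41079 genes counted in 4 libraries of whole lung RNA, 1 library for each combination of genotype, wild type (WT) or Rab44-knockout (KO), and state, normal or ovalbumin (OVA)-induced. Where 4 values are given in a row, the order is WT then Rab44-KO of the normal lungs, followed by WT then Rab44-KO of the OVA-induced lungs. Rab44 encodes a large Rab GTPase, and the KO was made by CRISPR/Cas9 editing on a C57BL/6 background. All mice were female littermates aged 8 to 14 weeks. For OVA induction, 100 μg of the protein in alum was injected into the peritoneum on days 0, 7 and 14, 100 μg in 50 μL was then given through the nose for 4 days, and lungs were taken on day 21. Normal mice are labelled as untreated, although the protocol in the labels also names an intranasal PBS challenge. How many mice went into a library is not given in the sources used here.

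IL-1α, IL-1β, IL-18 and IL-36γ are cytokines that signal through paired receptor chains to MYD88 and NF-κB. IL-1β and IL-18 are made as precursors that caspase-1 cuts within inflammasomes, whereas IL-36 cytokines are cut by neutrophil proteases and cathepsin S. The receptor antagonist encoded by Il1rn occupies the IL-1 receptor without signalling, and the decoy receptor encoded by Il1r2 binds IL-1 without a signalling domain. In the airway, these cytokines are known for drawing in neutrophils and for amplifying allergen responses.

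The libraries held 18112901 to 19910236 counts, of which the 10 genes took 0.0180% to 0.0276%. Rab44, the targeted gene, had 251 and 810 counts in the normal and OVA-induced WT libraries and 1 and 0 counts in the KO libraries, as labelled. The summed level of 8 alveolar epithelium markers was 14825 to 25371 CPM (counts scaled to library size) in each library. With 1 library per condition there is no replicate and no test. Intervals are exact 95% intervals that cover counting error only, and each difference below is a difference between libraries. In whole lung, fewer cells of a type and less RNA per cell cannot be told apart. The genes were chosen by family name with the log2 fold changes and counts of these libraries in view, so their differences are descriptions.

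In the normal lung, Il36g, which encodes IL-36γ, an epithelial and myeloid alarm cytokine, was the family gene that differed most between genotypes, at 8.57-fold more in the Rab44-KO library. After OVA induction, Il1rn and Il1a were lower in the Rab44-KO than in the WT library by 3.01-fold and 2.71-fold, while Il36g was 2.04-fold higher and Il1b was within 2-fold. The decoy receptor gene Il1r2 was higher after OVA induction in both genotypes, and the signalling receptor genes stayed within 2-fold in every comparison.

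The 5 cytokine genes and the antagonist lie on chromosomes 2 and 9, and the receptors on chromosome 1 (GRCm38, GENCODE M21). Il36g (chr2:24186476-24193568), Il36a (chr2:24215418-24225702) and Il1rn (chr2:24336853-24351494) lie on the plus strand of 1 cluster with Il36b, Il36rn and Il1f10. Il1a (chr2:129299610-129309972) and Il1b (chr2:129364570-129371139) lie on the minus strand of the same chromosome, 54.6 kb apart. Il18 lies at chr9:50554827-50581840 on the plus strand. The receptor genes run along the plus strand of chromosome 1 in the order Il1r2, Il1r1, Il1rl2, Il1rl1, Il18r1 and Il18rap, and 0.137 kb separates Il1rl1, the IL-33 receptor gene, from Il18r1. Il36a, the gene next to Il36g, had no count.

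The promoters of the 4 genes on which the genotype differences turn are printed to show the start-site sequence of an IL-36, both IL-1 cytokines and their antagonist. They come from RefSeq (GRCm38.p6), run 5′ to 3′ on the gene's strand from 250 bases before the start site and cover 300 bases, and capitals mark motif matches. Il36g is chr2:24186226-24186525 on the plus strand, Il1a chr2:129309923-129310222 on the minus strand, Il1b chr2:129371090-129371389 on the minus strand, and the first of the Il1rn promoters chr2:24336610-24336909 on the plus strand.
Il36g: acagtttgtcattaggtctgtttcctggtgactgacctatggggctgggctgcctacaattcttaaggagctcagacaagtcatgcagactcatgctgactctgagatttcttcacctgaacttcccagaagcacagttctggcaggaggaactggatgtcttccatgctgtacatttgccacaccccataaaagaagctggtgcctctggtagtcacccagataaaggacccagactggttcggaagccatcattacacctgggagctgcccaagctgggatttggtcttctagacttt
Il1a: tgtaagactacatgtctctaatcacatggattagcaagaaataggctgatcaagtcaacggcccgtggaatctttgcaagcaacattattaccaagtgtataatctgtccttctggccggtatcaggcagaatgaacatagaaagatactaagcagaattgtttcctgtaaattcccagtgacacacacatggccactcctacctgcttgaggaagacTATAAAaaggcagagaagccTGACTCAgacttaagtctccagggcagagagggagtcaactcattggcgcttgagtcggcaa
Il1b: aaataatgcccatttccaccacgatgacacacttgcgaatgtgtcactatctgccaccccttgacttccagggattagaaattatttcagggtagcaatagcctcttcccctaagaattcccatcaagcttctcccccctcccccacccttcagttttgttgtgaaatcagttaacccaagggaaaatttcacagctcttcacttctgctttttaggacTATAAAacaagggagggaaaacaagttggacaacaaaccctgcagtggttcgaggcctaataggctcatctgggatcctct
Il1rn: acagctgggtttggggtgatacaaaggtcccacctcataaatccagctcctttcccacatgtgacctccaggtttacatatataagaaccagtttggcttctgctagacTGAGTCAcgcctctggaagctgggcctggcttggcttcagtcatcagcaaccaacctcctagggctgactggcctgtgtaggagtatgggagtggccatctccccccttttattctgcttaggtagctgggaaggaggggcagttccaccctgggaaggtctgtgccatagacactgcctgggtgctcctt
Capitals mark the TATA box, spelled TATAAA, and the AP-1 motif, spelled TGANTCA, searched on both strands. Also searched were the NF-κB consensus, TTGCNNAA (C/EBP) and TNGCGTG (aryl hydrocarbon receptor core). Among 32851 mouse promoters of the same length, 13.6% held TATAAA, 7.81% the AP-1 motif, 4.51% the NF-κB consensus, 10.8% the C/EBP motif and 5.07% the aryl hydrocarbon receptor core. Il1a and Il1b each held TATAAA, beginning 32 and 31 bases before the start site, and AP-1 matches lay in Il1a from 12 to 6 bases before the start and in Il1rn from 141 to 135 bases before it. No match was found in the Il36g window. The motif set was revised after matches had been seen: a looser NF-κB pattern, with 4 free bases, and a looser C/EBP pattern, TTNCNNAA, were searched first, and TATAAA was added after the sequences were read. The looser NF-κB pattern matched 2 of 14 promoters of 9 family genes, those of Il36g and Il1rn, against 20.7% of all promoters, and the consensus matched 1, a second Il1r1 promoter. The looser C/EBP pattern matched 7 of 14 against 40.7% of all promoters, and the stricter one matched 2. A match describes letters and is not a binding site. Matched motifs do not overlap in the printed sequences.

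Il36g had 14 and 114 counts in normal WT and Rab44-KO lung, and 101 and 207 counts after OVA. The normal WT library was the lowest and the OVA-induced Rab44-KO library the highest, and the normal Rab44-KO library was close to the OVA-induced WT library. Between genotypes, the log2 fold change (log2FC), Rab44-KO against WT, was 3.09 (95% interval 2.29 to 4.01) in normal and 1.02 (0.68 to 1.38) in OVA-induced lung. OVA induction gave a log2FC of 2.83 (2.03 to 3.76) in WT and 0.76 (0.43 to 1.11) in Rab44-KO. The response in Rab44-KO minus that in WT was -2.06 (-3.06 to -1.18) on the log2 scale, so the genotypes were closer in ratio after OVA than before it. The CPM level was 0.729 and 6.25 in normal WT and Rab44-KO lung, and 5.21 and 10.6 after OVA. The rise in CPM was thus of like size in both genotypes. Among 13166 genes reaching 100 counts in either normal library, the Il36g difference ranked second from the top. Il36g reached 100 counts there only through the Rab44-KO library, so nothing is read from this rank.

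Il36a, which encodes IL-36α, was listed at 0 counts in all 4 libraries, and so were Il36b, Il36rn, which encodes the IL-36 receptor antagonist, and Il1f10. At a floor of 3 counts, the limit used here for a count of 0, this allows up to 0.154 to 0.164 CPM. Il36g was the only IL-36 cytokine gene detected at this depth. The count ratio of Il36g to Il36a was at least 3.32, 30.4, 26.9 and 55.6 over the 4 libraries, as lower bounds of the interval. Only 0.0667% of the 150-base windows of the Il36g transcript occur in another transcript, Gm15983.

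**Figure D1:**
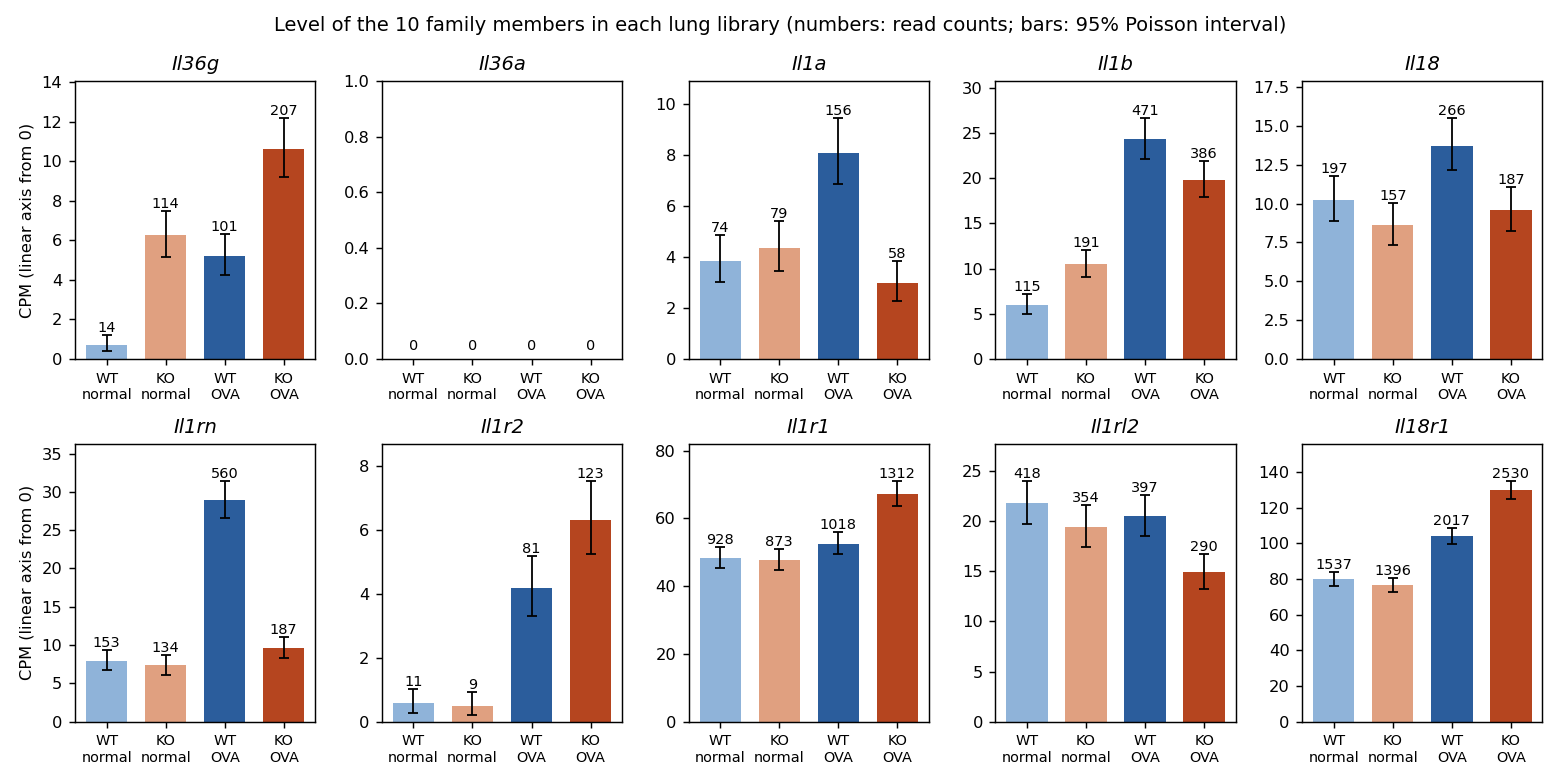
Level of each of the 10 family genes in the 4 lung libraries, as CPM on a linear axis from 0, with read counts above the bars and exact 95% Poisson intervals as error bars. Il36g is lowest in normal WT at 14 counts and highest in OVA-induced Rab44-KO at 207, Il1rn is highest in OVA-induced WT at 560, and Il36a has no count.

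Il1a encodes IL-1α, which is active as made and released from damaged cells. It had 74 and 79 counts in normal WT and Rab44-KO lung, and 156 and 58 counts after OVA. The OVA-induced WT library was the highest and the OVA-induced Rab44-KO library the lowest. OVA induction gave a log2FC of 1.06 (0.66 to 1.48) in WT and -0.54 (-1.06 to -0.03) in Rab44-KO, so the sign differed between genotypes. Between genotypes, the log2FC was 0.17 (-0.31 to 0.64) in normal and -1.43 (-1.90 to -0.99) in OVA-induced lung. An antisense RNA, Gm14023, overlaps 222 exonic bases of Il1a and had 30, 36, 37 and 23 counts in the same order, and 4.16% of the 150-base windows of the Il1a transcript are shared with it. The handling of strand in counting is not given in the sources used here.

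Il1b, which encodes IL-1β, had 115 and 191 counts in normal WT and Rab44-KO lung, and 471 and 386 counts after OVA. Both OVA-induced libraries were above both normal libraries. The normal Rab44-KO library exceeded the normal WT library by a log2FC of 0.80 (0.46 to 1.15), and the OVA-induced Rab44-KO library was below the WT library by -0.30 (-0.49 to -0.10). This second value was 0.030 in the deposited TPM (counts scaled by gene length and library total), where the all-gene median was 0.29, so that Il1b lay 0.26 below that median against 0.27 below it in the CPM scale. It was -0.05 when a trend with gene length was removed. OVA induction gave a log2FC of 2.02 (1.72 to 2.33) in WT and 0.92 (0.67 to 1.18) in Rab44-KO. In TPM the second of these was 1.04, past 2-fold, where the all-gene median was 0.11. The antisense gene Il1bos overlaps 25 exonic bases of Il1b and had 9 to 18 counts.

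Il18, which encodes IL-18, had 197, 157, 266 and 187 counts over the 4 libraries. Every comparison was within 2-fold, from a log2FC of -0.52 (-0.80 to -0.24) for Rab44-KO over WT after OVA to 0.42 (0.15 to 0.69) for OVA in WT. In TPM the value for Rab44-KO over WT after OVA was -0.19, outside that interval, where the all-gene median was 0.29. Per length, Il18 was the most abundant of the 5 listed cytokine genes in normal WT lung, at 9.41 TPM against 7.54 for Il1b, 4.64 for Il1a and 1.05 for Il36g. Il1b was first among these 5 in OVA-induced WT lung, at 27.1 TPM. Il33, described further on, was higher than each of them in every library, at 53.9 to 139 TPM. Il36g made up 4.65%, 25.5%, 12.5% and 29.1% of the summed TPM of these cytokines over the 4 libraries, more in Rab44-KO than WT in both states. The share of Il1b ran from 33.3% to 50.7%, and that of Il1a between 6.81% and 20.5%, lowest in the OVA-induced Rab44-KO library.

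Il1rn had 153 and 134 counts in normal WT and Rab44-KO lung, and 560 and 187 counts after OVA. The OVA-induced WT library stood above all others. OVA induction gave a log2FC of 1.86 (1.60 to 2.13) in WT and 0.39 (0.06 to 0.72) in Rab44-KO, a difference of -1.47 (-1.90 to -1.05). Rab44-KO over WT was -0.12 (-0.46 to 0.23) in normal and -1.59 (-1.84 to -1.35) in OVA-induced lung.

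The antagonist gene was set against Il1b within a library, where library scaling cancels. The count ratio, which is not corrected for gene length, of Il1rn to Il1b was 1.33 (1.04 to 1.71) and 0.702 (0.558 to 0.880) in normal WT and Rab44-KO lung. After OVA it was 1.19 (1.05 to 1.35) and 0.484 (0.405 to 0.578). Per length, in TPM, the ratio was 0.895, 0.472, 0.800 and 0.326 over the 4 libraries. The Il1rn value was thus below that of Il1b in each, though by little in normal WT, and no interval was computed for the TPM ratios. Both Rab44-KO libraries were below both WT libraries on either scale. The count ratio was 1.90-fold lower in Rab44-KO than WT in normal lung (1.35 to 2.67) and 2.45-fold lower in OVA-induced lung (1.97 to 3.06). In normal lung this came with more Il1b, and after OVA with less Il1rn. The ratio of Il1rn to Il1a was 2.07, 1.70, 3.59 and 3.22 in the same order of libraries, and its genotype change had an interval that included 1 in both conditions.

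**Figure D2:**
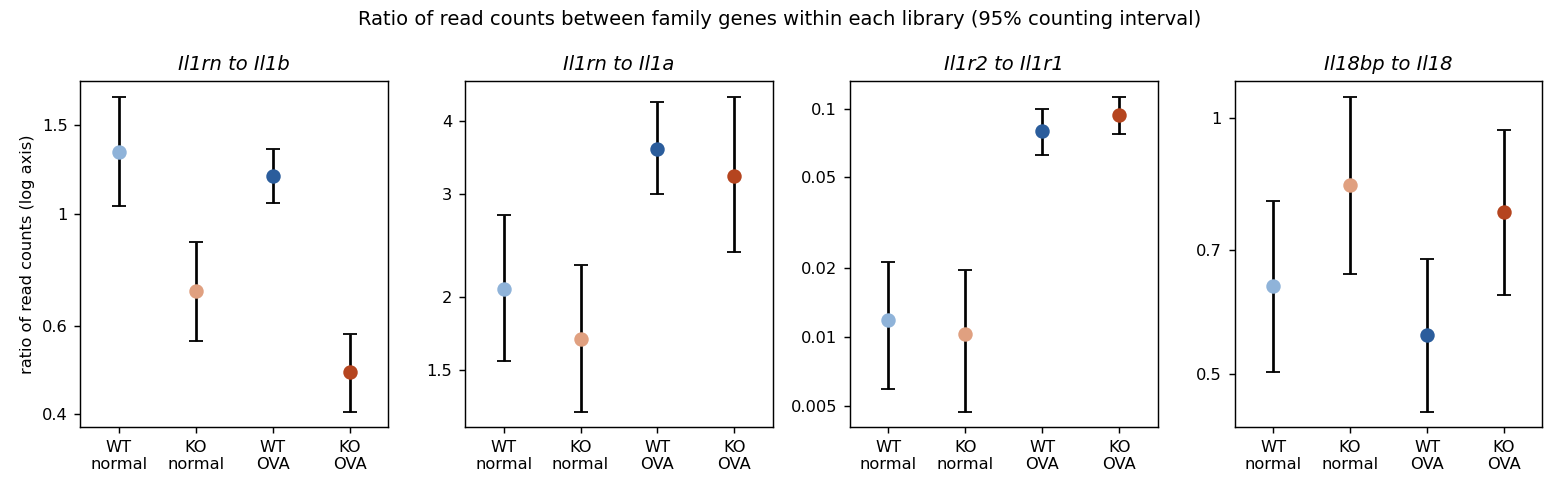
Ratio of read counts between pairs of family genes within each library on a log axis, with 95% counting intervals as bars. The ratio of Il1rn to Il1b is 0.702 and 0.484 in the Rab44-KO libraries and 1.33 and 1.19 in the WT libraries, and that of Il1r2 to Il1r1 is higher in both OVA-induced libraries.

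Il1r2, the decoy receptor gene, had 11 and 9 counts in normal WT and Rab44-KO lung, and 81 and 123 counts after OVA. The normal libraries were close to each other and the OVA-induced libraries were far above them. OVA induction gave a log2FC of 2.85 (1.95 to 3.93) in WT and 3.66 (2.71 to 4.84) in Rab44-KO, and the difference, 0.81 (-0.67 to 2.32), included 0. Relative to Il1r1, which encodes the signalling IL-1 receptor, Il1r2 was 6.71-fold higher after OVA in WT (3.53 to 14.1) and 9.09-fold higher in Rab44-KO (4.6 to 20.5). After OVA, Rab44-KO exceeded WT by 0.59 (0.18 to 1.02).

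The signalling receptors had higher counts and smaller differences. Il1r1 had 928, 873, 1018 and 1312 counts over the 4 libraries. Its OVA response was 0.12 (-0.01 to 0.25) in WT, with an interval that included 0 and a value of -0.05 in TPM, and 0.49 (0.37 to 0.62) in Rab44-KO. Il18r1, the IL-18 receptor gene, was the most abundant of the 10 genes per length, at 36.3 to 67.3 TPM. It had 1537, 1396, 2017 and 2530 counts, with an OVA response of 0.38 (0.28 to 0.48) in WT and 0.76 (0.67 to 0.86) in Rab44-KO. Il1rl2, the IL-36 receptor gene, went the other way, with 418, 354, 397 and 290 counts and a Rab44-KO over WT log2FC of -0.46 (-0.69 to -0.24) after OVA. In normal lung the Il1rl2 difference was -0.17 (-0.37 to 0.04), with an interval that included 0. The cytokine Il36g and its receptor gene Il1rl2 thus differed in opposite directions between the OVA-induced libraries. In TPM the Il1rl2 value after OVA was -0.13, outside its counting interval, where the all-gene median was 0.29.

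**Figure D3:**
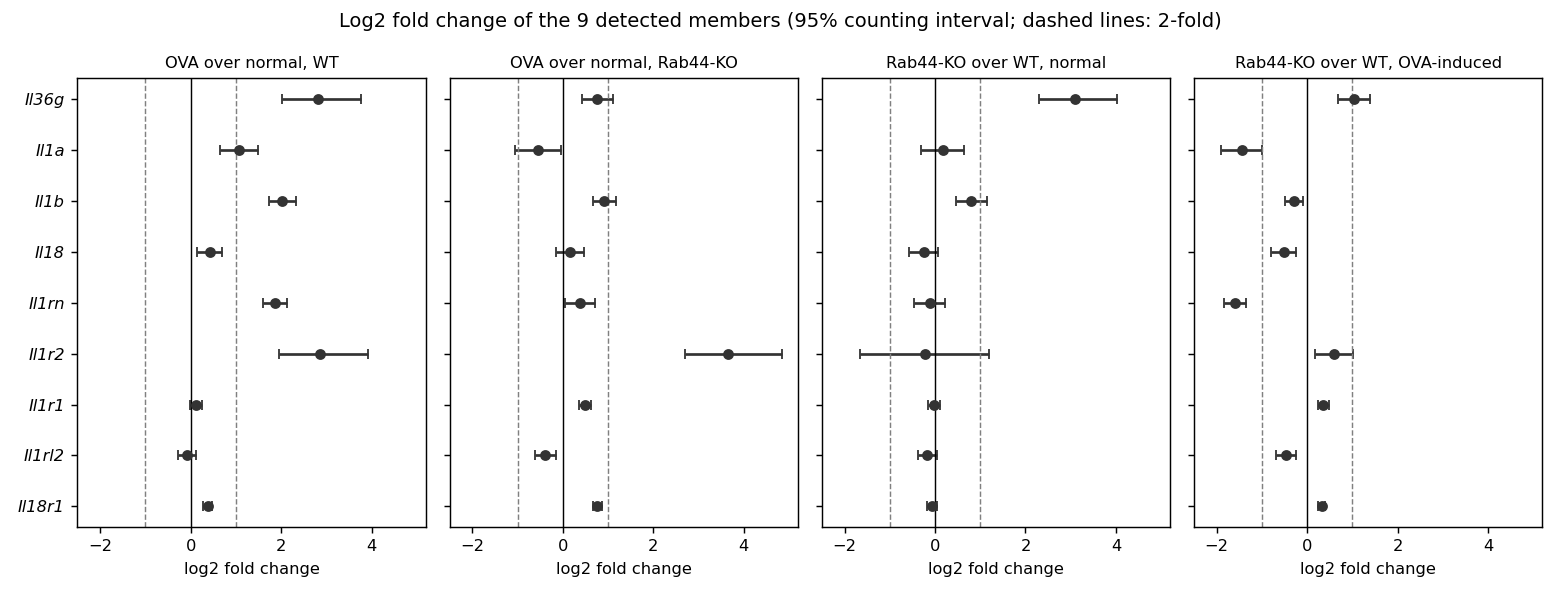
Log2 fold change of the 9 detected family genes in the 4 comparisons, with 95% counting intervals as bars and dashed lines at 2-fold. Il36g lies at 3.09 for Rab44-KO over WT in normal lung, and Il1rn and Il1a lie at -1.59 and -1.43 in OVA-induced lung.

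Of the 9 genes with at least 10 counts, 5 were over 2-fold higher after OVA in WT (Il36g, Il1r2, Il1b, Il1rn and Il1a), where 8.99% of 19023 genes were over 2-fold higher, and none was over 2-fold lower, against 5.2%. After OVA in Rab44-KO, 1 of 9 (Il1r2) was over 2-fold higher, against 6.44% of 19073 genes, and none was over 2-fold lower, against 3.85%. Between genotypes, 1 of 9 (Il36g) was over 2-fold higher in normal Rab44-KO lung, against 2.77% of 18718 genes, and none was over 2-fold lower, against 2%. In OVA-induced lung, 1 (Il36g) was over 2-fold higher, against 8.4% of 19259 genes, and 2 (Il1rn and Il1a) were over 2-fold lower, against 7.34%. The median log2FC of the 9 genes was 1.06, 0.49, -0.07 and -0.30 in these comparisons, beside all-gene medians from -0.02 to 0.00. Because results of these libraries guided the choice of genes, nothing is read from these shares. Il1a after OVA in WT lay near the 2-fold line, at 0.87 in TPM, where the all-gene median was -0.16, and 0.95 with the length trend removed, and Il36g after OVA ranged from 1.01 to 1.36 over the settings tried.

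On the log2 scale, the OVA response was smaller in Rab44-KO than in WT for Il36g, Il1a, Il1rn and Il1b, with a difference for Il1a of -1.60 (-2.27 to -0.94) and for Il1b of -1.10 (-1.50 to -0.70). For Il36g the normal WT library held 14 counts, and the rise in CPM was of like size in both genotypes. The log2 response was larger in Rab44-KO for Il18r1, by 0.38 (0.25 to 0.52), and for Il1r1, by 0.37 (0.19 to 0.55). The intervals for Il18, Il1rl2 and Il1r2 included 0. The comparisons share libraries, so these responses are not independent of the genotype differences above.

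**Figure D4:**
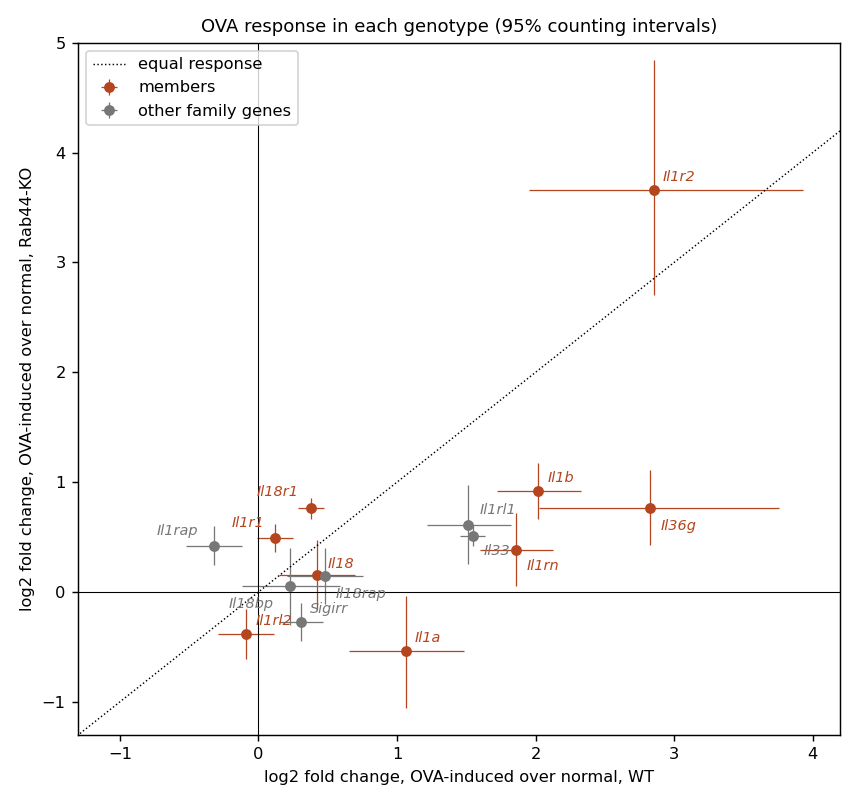
Log2 fold change after OVA induction in Rab44-KO (vertical axis) against WT (horizontal axis) for the 9 detected genes and other genes of the family, with 95% counting intervals as bars and a dotted line of equal response. Il36g, Il1b, Il1rn and Il1a lie below the line, and Il1r2 lies at the top with 2.85 in WT and 3.66 in Rab44-KO.

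Of the other family cytokines, Il33, which encodes the epithelial alarmin IL-33, had 1302, 1441, 3834 and 2198 counts over the 4 libraries. Its receptor gene Il1rl1 had 122, 106, 352 and 173 counts. Both were highest in OVA-induced WT lung, and Rab44-KO over WT after OVA was -0.81 (-0.89 to -0.74) for Il33 and -1.03 (-1.31 to -0.77) for Il1rl1. Il1rap, the accessory chain that IL-1, IL-33 and IL-36 receptors share, was higher in Rab44-KO after OVA, by 0.76 (0.57 to 0.95). Il18bp, which encodes the IL-18 binding protein, differed by -0.04 (-0.38 to 0.30), so its count ratio to Il18 was 1.39-fold higher in Rab44-KO (1.03 to 1.89). Il18rap, the second chain of the IL-18 receptor, differed by 0.08 (-0.17 to 0.32), and Sigirr, an inhibitory receptor of the family, by -0.49 (-0.65 to -0.32). Il1rapl2 was at 0 counts in every library, and Il1rapl1 had 2 counts in normal WT and 0 elsewhere.

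Genes that act with the family were read in OVA-induced lung as Rab44-KO over WT. Of 8 inflammasome and pyroptosis genes, 1 was over 2-fold lower, Pycard, the adaptor that joins sensors to caspase-1, at -1.39 (-1.65 to -1.13), and the list median was -0.50. Intervals lay below 0 for 5 of the 8 and above it for 1, the sensor gene Nlrp3, named after its value was seen, with 131 and 234 counts at 0.83 (0.51 to 1.15). Of 4 proteases that cut IL-36, 2 had enough counts, and they differed in direction. Cathepsin S (Ctss) was at -1.78 (-1.84 to -1.72), and proteinase 3 (Prtn3), named after its value was seen, at 1.30 (0.20 to 2.53) on 10 and 25 counts. None of 11 receptor signalling genes was over 2-fold, with a median of 0.02 and NF-κB inhibitor gene Nfkbia at 0.51 (0.45 to 0.57). Of 13 target genes that IL-1 signalling induces, 10 were over 2-fold lower and none higher, against 7.34% and 8.4% of all genes, with a median of -1.24. The chemokine gene Ccl20 had 109 counts in WT and 12 in Rab44-KO, a log2FC of -3.18 (-4.19 to -2.33), and the acute-phase gene Saa3 had 1241 and 150, at -3.06 (-3.31 to -2.81). In TPM, where the all-gene median was 0.29, the target count was 6 of 13, with Cxcl1, Il6, Sele and Tnf, named after their values were seen, within 2-fold, and it was 9 of 13 relative to that median. With the length trend removed it was 6 of 13. After OVA in WT, 8 of 13 of these targets were over 2-fold higher, against 8.99% of all genes. After OVA in Rab44-KO, 4 of 11 were higher and 3 lower, against 6.44% and 3.85%.

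Cell type markers differed between the same libraries. Counts of markers over 2-fold are to be read beside 7.34% of all genes lower and 8.4% higher in Rab44-KO after OVA, and 2.77% higher in normal lung. The summed level of 8 alveolar macrophage markers was 270, 275, 711 and 311 CPM over the 4 libraries, and that of 8 monocyte and interstitial macrophage markers was 274, 275, 622 and 319 CPM. In Rab44-KO over WT after OVA, 3 of the 8 alveolar macrophage markers were over 2-fold lower (Marco, Atp6v0d2 and Itgax) and 1 was higher, Fabp1, with 31 and 116 counts. Of the 8 monocyte and interstitial macrophage markers, 4 were over 2-fold lower (C1qa, C1qb, Ly6c2 and Adgre1) and none higher, a count that was 2 in TPM and with the length trend removed and 4 in TPM relative to the all-gene median. Of these, Atp6v0d2, Itgax, Ly6c2 and Adgre1 were named after their values were seen. Il1rn had the same order between OVA-induced libraries, and 1 of its 3 nearest genes in pattern was C1qa, a macrophage complement gene. The 11 neutrophil markers summed to 129, 164, 635 and 799 CPM, with 2 over 2-fold higher (Mmp8 and Ly6g, the latter named after its value was seen) and none lower in Rab44-KO after OVA. In TPM 4 were over 2-fold higher. Ly6g had 9 and 20 counts, and its interval included 0. The intervals of the list lay above 0 for 7 markers and below it for 2, Ltf (795 and 462 counts, at -0.79) and Retnlg (2630 and 2015 counts, at -0.39), both named after their values were seen. S100a9 was among the 3 nearest genes to Il1r2. The 6 eosinophil markers summed to 21.3, 22.4, 60.1 and 18.3 CPM, and all 4 with enough counts, Ccr3, Prg2, Siglecf and Il5ra, were over 2-fold lower in Rab44-KO after OVA, while the granule genes Epx and Prg3 had at most 3 counts in any OVA-induced library. In TPM 2 of the 4 were over 2-fold lower, with Siglecf at -0.89 and Il5ra at -0.72, and relative to the all-gene TPM median all 4 were. Siglecf, Il5ra, Epx and Prg3 were named after their values were seen. The 9 squamous and basal epithelium markers, of an epithelium known to make IL-36, summed to 2.55, 3.51, 1.45 and 3.03 CPM. The sum was higher in Rab44-KO than WT in both states, as Il36g was, but lower after OVA in both genotypes, where Il36g was higher. Over 2-fold higher in Rab44-KO were Krt5 in normal lung, 1 of 2 with enough counts, and Sprr1a and Trp63 after OVA, 2 of 3, all on 26 or fewer counts and named after their values were seen. The count after OVA was 1 of 3 in TPM relative to the all-gene median, and also with the length trend removed. Other markers went the other way, with Krt14 at 12 and 8 counts after OVA and Sprr1a, Krt13 and Krt17 at 5 and 3, 3 and 1, and 4 and 0 counts in normal lung. Krt6a and Sprr3 were at 0 in every library, and the keratin genes and Sprr3 here were likewise named after their values were seen. The 8 alveolar epithelium markers summed to 25371 CPM in OVA-induced WT and 14825 CPM in OVA-induced Rab44-KO lung, and most of this drop lay in 1 gene, the surfactant gene Sftpc, at 18690 and 9290.4 CPM. Its log2FC of -1.01 lay at the 2-fold line, and was -0.94 with total counts, -0.68 in TPM and -0.49 with the length trend removed. Intervals lay below 0 for 6 of the 8 markers and above it for 2, among them Rtkn2, named after its value was seen, with 3468 and 6239 counts at 0.84 (0.78 to 0.90). The part of these cell types in the family differences was not tested.

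**Figure D5:**
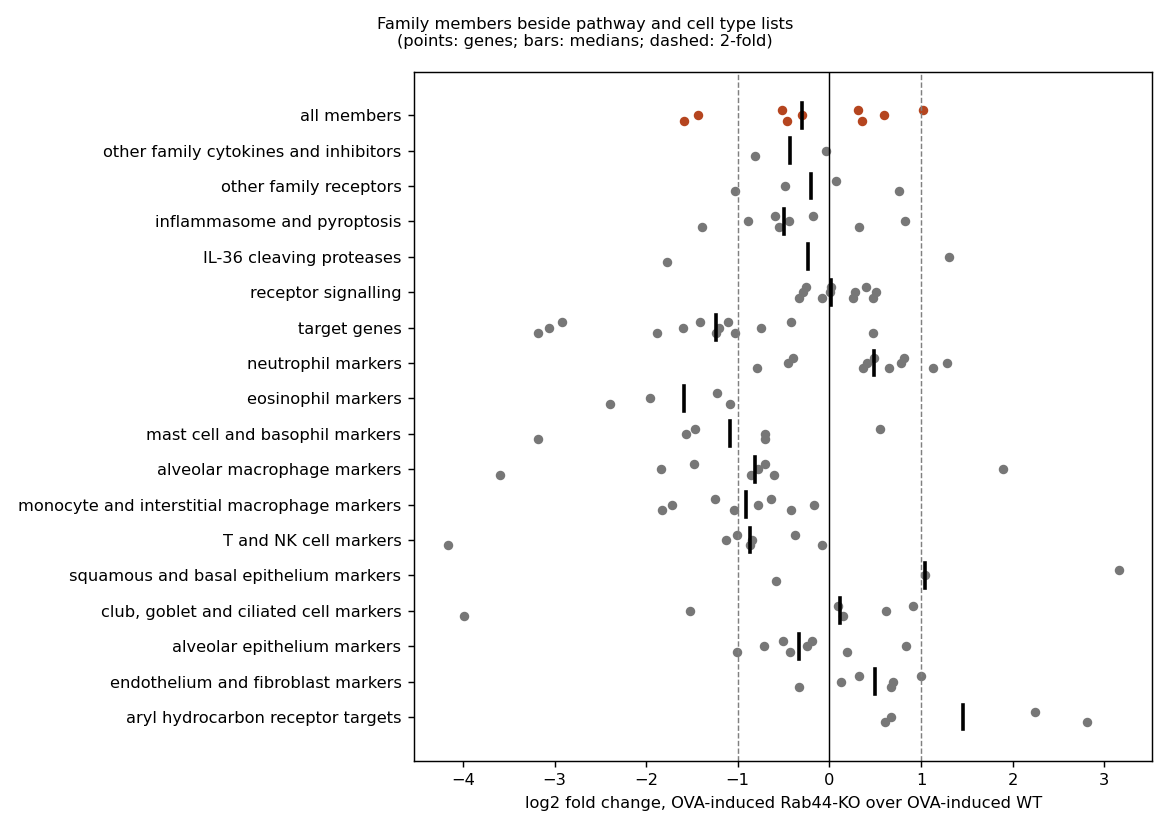
Log2 fold change of OVA-induced Rab44-KO over OVA-induced WT for single genes (points) in the family and in pathway and cell type lists, with medians as bars and dashed lines at 2-fold. The family median is -0.30, that of the target genes -1.24 and that of the neutrophil markers 0.48.

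The genes closest in pattern over the 4 libraries, by distance between centred log2 CPM among 13899 genes with at least 100 counts in their highest library, differed by member. Il1a lay closest to Fdps, at a distance of 0.0707, then Gla and Dnase2a. Il1rn lay closest to Irf4, at 0.115, then Clec5a and C1qa. Il1b lay closest to Aldh1a2, at 0.181, then Lilra6 and Cd300lb. Il1r2 lay closest to Spon2, at 0.378, then S100a9 and Asprv1. Il36g had 1 close neighbour, the immunoglobulin segment Igkv4-57, at 0.207, and the next, Igkv4-59, lay at 1.22. With 4 points each, many genes share a pattern, and a flat pattern such as that of Il1r1 has neighbours at 0.0137.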

How the data were processed

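Total lung RNA was prepared with a directional kit and sequenced as 150-bp paired-end reads. Trimmed reads were aligned by HISAT2 to GRCm38, and the authors deposited raw featureCounts counts of each gene, and they name DESeq2 for differential expression. The authors also deposited TPM, used here to compare levels between genes of different length. Versions, strand settings and the handling of reads with several matches are not given in the sources used here. Gapdh had 47, 34, 83 and 49 counts in the order of libraries used above, beside 29756 to 45101 for Actb. Both were named after their values were seen, and the cause was not tested. A low or missing count in this table may thus not mean little RNA. Gene starts in the deposited table differ from those of GENCODE M21 for every family gene, as for Il1b, at 129206490 against 129364570. Which build the deposited starts follow was not tested, and positions given here follow GENCODE M21 (GRCm38).

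Counts were scaled by TMM in edgeR 4.0.16 (R 4.3.3, Python 3.11.15, scipy 1.17.1), with normalization factors from 0.973 to 1.02 and a prior count of 0.125. The log2FC was taken where the higher library reached 10 counts, and a gene beyond a log2FC of 1 was counted as over 2-fold. Ratios carry exact 95% intervals (Clopper-Pearson), each CPM an exact Poisson interval, and each ratio of ratios an exact conditional interval, for counting error only. With 1 library per group a 2-library comparison leaves no residual degrees of freedom, and no p-value was computed. An additive fit of genotype and OVA was not run.

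The members and lists were chosen with earlier results of these data known. Named genes are all members, the other family genes, the 2 genes of each further list with the largest absolute log2FC between OVA-induced libraries and at least 100 counts (a selection of these is printed), Rab44, and the 3 genes nearest in pattern to each member. Further genes, marked in the text, were named after their values were seen. Promoter motifs were also revised after matches were seen. Steps were tested on simulated counts. Alternatives were DESeq2 1.42.0 size factors, total counts, TMM on pairs or without immunoglobulin genes, a prior count of 2, TPM with a pseudocount of 0.1, thinning, count minimums of 1 and 50, stricter call rules and, added after seeing the data, removal of a gene-length trend in windows of 501 genes and these scalings for the list counts.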

Additional observations from a re-analysis of the deposited data

Results flagged for a closer look

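Some family genes moved in opposite directions in the paired comparisons, as judged by 1 library per condition, and the difference was not tested against replicates. Il1a had an OVA response of 1.06 in WT and -0.54 in Rab44-KO on the log2 scale. Il1rap, the shared accessory chain, had responses of -0.32 in WT and 0.42 in Rab44-KO, and 2.20% of its 150-base transcript windows are shared with an antisense RNA. Sigirr had responses of 0.31 and -0.28. Between genotypes, Il1b was 0.80 higher in Rab44-KO in normal lung and -0.30 in OVA-induced lung. The sign of this second value depended on scaling, at 0.030 in TPM, where the all-gene median was 0.29. Il33 was 0.22 in normal and -0.81 in OVA-induced lung. Comparisons that share a library are not independent.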

How the results depend on the processing

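Counts of family members over 2-fold kept within 1.5 times the reported count for 44 of 48 alternatives. At an absolute log2FC above 2, the count after OVA in WT was 3 in place of 5, and that for Rab44-KO over WT in OVA-induced lung was 0 in place of 3. With the counting interval wholly beyond 2-fold the latter count was 1, a lower gene. With TPM, the count after OVA in Rab44-KO was 2 in place of 1. TPM moved the all-gene median by 0.32 for Rab44-KO over WT after OVA, and by -0.17 and 0.12 for the OVA response in WT and Rab44-KO. Counts over 2-fold in the other pathway and marker lists were recomputed under settings added after seeing the data, and 104 of 126 stayed within 1.5 times. For Rab44-KO over WT after OVA, TPM gave 6 in place of 10 target genes, 4 in place of 2 neutrophil, 2 in place of 4 eosinophil, 2 in place of 4 monocyte, 1 in place of 3 T and NK cell, and 2 in place of 1 endothelium and fibroblast and inflammasome genes. Taken relative to the all-gene TPM median, none of these moved by over 1.5 times, but the other family receptors and alveolar epithelium gave 0 in place of 1, and squamous genes and aryl hydrocarbon receptor targets 1 in place of 2. Those targets also gave 1 in normal lung in both TPM forms. Total counts gave 0 other family receptors and alveolar genes, and TMM without immunoglobulin genes 0 endothelium and fibroblast genes. Removal of the length trend gave 6 target, 2 monocyte, 1 squamous, 4 club, goblet and ciliated, 0 alveolar and 0 endothelium and fibroblast genes. Of 288 log2FC values, 275 stayed within the counting interval of the reported value and 12 moved beyond it. Among values whose interval excluded 0, 1 changed sign, that of Il1b for Rab44-KO over WT after OVA, at 0.030 in TPM, which is 0.26 below the all-gene median of that setting. Sign also changed for values whose interval included 0: Il1r1 after OVA in WT (-0.05 in TPM), Il1r1 between normal genotypes (0.012 in TPM and 0.0083 when thinned), and, in TPM, the differences of response of Il18 (0.04) and Il1rl2 (0.0042). Of 54 differences of response, 2 moved beyond their interval, both in TPM: Il1r1 to 0.67 and Il18r1 to 0.68, where the all-gene medians of both responses had also moved. The cause of the other moves was not tested. No paired analysis was possible because each group has 1 library and the labels carry no replicate numbers, and for the same reason no replicate could be left out. Depth limits Il1r2 in normal lung, at 9 and 11 counts, and Il36g in normal WT, at 14.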

Other observations

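Of 4 genes that the aryl hydrocarbon receptor induces, 2 were over 2-fold higher in Rab44-KO in normal lung, against 2.77% of all genes, and 2 in OVA-induced lung, against 8.4%, with medians of 1.02 and 1.46. Their summed level was 53.0 and 255 CPM in normal WT and Rab44-KO lung and 58.1 and 98.6 CPM after OVA, carried in normal Rab44-KO lung by 1 gene. This was Cyp1a1, which encodes a xenobiotic-metabolizing enzyme, with 67 and 3418 counts in normal and 30 and 212 counts in OVA-induced lung. The other gene over 2-fold was Ahrr, the receptor's repressor, on 16 or fewer counts, named after its values were seen, and its interval in normal lung included 0. Any part of these genes in the Il36g difference was not tested.

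Of 6 club, goblet and ciliated cell markers, 2 were over 2-fold lower in Rab44-KO after OVA, against 7.34% of all genes, and both encode mucins, while the list median was 0.12 and intervals lay above 0 for 3 markers and below it for 2. With the length trend removed, 4 of the 6 were over 2-fold in either direction. The club cell gene Cyp2f2, named after its value was seen, was at 0.91 (0.89 to 0.93), with 21168 and 40056 counts. Muc5ac, a goblet cell mucin, had 649 counts in WT and 41 in Rab44-KO, a log2FC of -3.99 (-4.49 to -3.54), and Muc5b was at -1.53 (-1.63 to -1.42). Of 7 T and NK cell markers, 3 were over 2-fold lower (Ifng, Gata3 and Cd3e, the first named after its value was seen) and 4 were within 2-fold. Cd3e lay at the 2-fold line, at -1.01, and in TPM 1 of the 7 was over 2-fold lower. Of 6 mast cell and basophil markers with enough counts 3 were over 2-fold lower (Tpsb2, Mcpt8 and Fcer1a, named after their values were seen), on 15 or fewer counts each. The 2 most abundant of the list went in opposite directions within 2-fold, Kit at 0.55 (0.48 to 0.61) on 3068 and 4514 counts and Cpa3 at -0.70 (-1.13 to -0.29) on 128 and 79. Of 6 endothelium and fibroblast markers, 1, the endothelial gene Vwf, lay at the 2-fold line, with a log2FC interval of 0.96 to 1.04 on 8130 counts in WT and 16385 in Rab44-KO, and was at 0.66 with the length trend removed.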
